A study of Homo sapiens with 9 samples.

Results

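The EGF receptor family and its ligands were followed across 9 Affymetrix Human Gene 1.0 ST arrays as 10 genes, taken by name: the receptors EGFR, ERBB2, ERBB3 and ERBB4 and the ligands TGFA, HBEGF, EREG, BTC, EPGN and NRG1. Each gene was represented by the probe set that the array annotation maps to that symbol alone, and by the brightest over the 9 arrays where several existed. All 10 genes had such a probe set, out of 18417 genes with a probe set of their own. By their labels the arrays carried RNA of SK-BR-3, a line derived from a human breast adenocarcinoma, in 3 groups of 3 arrays: cells stably transfected with TFPIα cDNA, cells stably transfected with TFPIβ cDNA, and cells transfected with the empty pTOPO vector. All 3 groups carried the pcDNA3.1/V5/His-pTOPO backbone, were cultured in RPMI1640 with serum, and went through drug selection, which the labels give as puromycin and the methods as neomycin. TFPI, the inhibitor of the tissue factor pathway of blood coagulation, is made as a secreted α isoform and a membrane-anchored β isoform. By the methods the TFPIα and TFPIβ groups were pools of stable cells, which they do not say of the empty vector group. They state that the 3 arrays of a cell line came from separate RNA isolations, and the labels number them as biological replicates 1 to 3. The tests thus measure the spread between RNA isolations of 1 cell line per group. In bulk RNA, fewer cells of a type and less RNA per cell cannot be told apart.

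The 4 receptors are tyrosine kinases of the cell surface that signal as dimers. TGFA, EREG, EPGN, HBEGF and BTC bind EGFR, HBEGF, BTC and EREG also bind ERBB4, and NRG1 binds ERBB3 and ERBB4, whereas ERBB2 has no known ligand of its own and acts as the preferred dimerization partner of the others. The ligands are made as membrane-bound precursors that proteases of the ADAM family cut loose, and the activated receptors signal through the RAS/ERK and PI3K/AKT cascades. In breast cancer the family is known for ERBB2, which is amplified in SK-BR-3 cells.

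EREG and EPGN, which lie in a cluster of ligand genes on chromosome 4, and TGFA were the ligands with a signal past the filter used below, and the sequences around their start sites are shown because the results turn on these ligands. RefSeq windows of 250 bases before and 50 after a start site matched 8 of the 10 genes on GRCh38.p14. Capitals mark every match on either strand to the TATA box, searched as TATAAA. They also mark matches to the GC box that binds SP1, searched on both strands as GGGCGG. The site of AP-1, a factor that ERK signalling activates, was searched likewise, as TGANTCA. The EREG window is chr4:74364895-74365194 on the plus strand, that of EPGN is chr4:74308220-74308519 on the plus strand, and that of TGFA, the first of its windows, is chr2:70553777-70554076 on the minus strand.
EREG: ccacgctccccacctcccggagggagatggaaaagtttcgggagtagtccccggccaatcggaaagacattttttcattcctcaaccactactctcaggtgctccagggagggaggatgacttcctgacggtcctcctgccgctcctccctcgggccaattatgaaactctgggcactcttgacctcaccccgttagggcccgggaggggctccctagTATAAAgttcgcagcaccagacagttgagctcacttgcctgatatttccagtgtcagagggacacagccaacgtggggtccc
EPGN: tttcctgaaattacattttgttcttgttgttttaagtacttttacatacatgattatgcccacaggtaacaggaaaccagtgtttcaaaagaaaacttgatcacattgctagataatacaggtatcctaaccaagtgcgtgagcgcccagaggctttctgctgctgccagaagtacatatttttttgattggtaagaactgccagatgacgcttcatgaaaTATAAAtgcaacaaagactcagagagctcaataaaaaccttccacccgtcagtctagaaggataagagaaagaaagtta
TGFA: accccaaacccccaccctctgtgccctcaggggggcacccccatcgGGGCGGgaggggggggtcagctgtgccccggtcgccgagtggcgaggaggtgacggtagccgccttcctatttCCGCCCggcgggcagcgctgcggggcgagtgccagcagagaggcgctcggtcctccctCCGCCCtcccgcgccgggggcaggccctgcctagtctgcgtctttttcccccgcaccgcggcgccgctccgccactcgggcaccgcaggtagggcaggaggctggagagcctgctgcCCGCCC
The EREG and EPGN windows each held 1 TATAAA, 32 and 29 bases before the start site, and no GC box, whereas the TGFA window held 4 GC boxes and no TATAAA. Over 35116 such windows of the human genome, 11.5% held TATAAA, 45.0% a GC box and 7.71% an AP-1 site. The AP-1 letters had no match in these 3 windows. The GC content was 57.7% for EREG, 37.7% for EPGN and 75.3% for TGFA, against a median of 58.7% over all windows. These are matches of letters and not sites of binding. In the annotation of that build, EPGN (74308470 to 74316789), EREG (74365145 to 74388749) and BTC (74744759 to 74794523) lie within 486 kb of chromosome 4, and 48.4 kb separate the end of EPGN from the start of EREG.

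Of the 10 genes, 5 reached a log2 signal of 5 on at least 1 array, the filter below which a probe set was treated as not expressed: EGFR, ERBB2, EREG, EPGN and TGFA. HBEGF, BTC, ERBB3, ERBB4 and NRG1 stayed under it on all 9 arrays. TGFA lay just inside the filter with a highest signal of 5.32, and BTC and HBEGF lay just outside it with 4.99 and 4.95. Signals of different probe sets are not amounts of RNA that can be set against each other, so each gene was compared only with itself and with the filter.

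**Figure D1:**
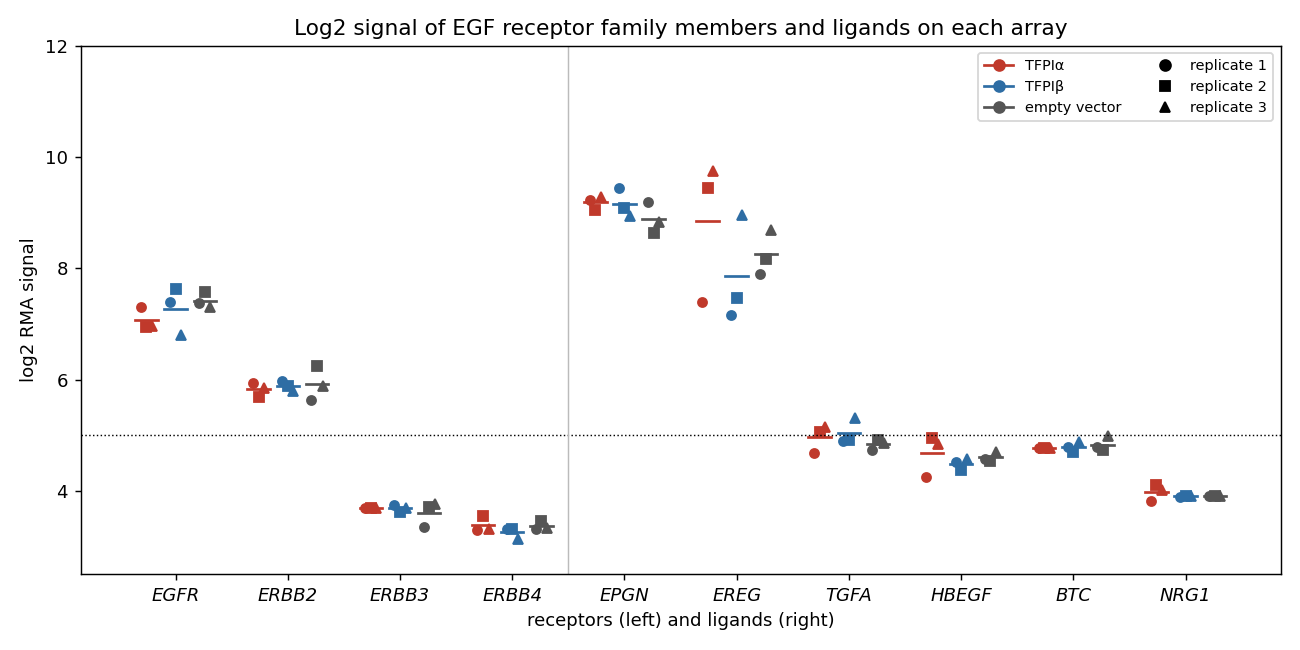
Log2 RMA signal (vertical axis) of the 4 receptors and 6 ligands (horizontal axis) on each of the 9 arrays; colour marks the group of the label, the shape of a point the replicate number, the short bars are group means (n = 3) and the dotted line is the filter at 5. EREG spreads over 2.59 log2 units with its groups overlapping, while the other genes spread over 0.84 or less.

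Some markers went against the labelled cell line and others did not, so groups are called by their labels throughout. The signal of ERBB2, the gene amplified in that line, averaged 5.88 ± 0.18 (SD, n = 9), less than 1 log2 unit above the filter. Over all 18417 genes with a probe set of their own, 11233 passed the filter, the background for the counts that follow. Of 13 listed neighbours in its 17q12-q21 amplicon 8 passed the filter. Their means were 8.35 for PSMD3, 7.81 for MIEN1, 7.19 for MED1, 7.01 for CDK12 and 6.52 for STARD3. Those of ORMDL3, PGAP3 and GRB7 were 5.96, 5.39 and 5.15. Of the luminal list 7 of 10 genes passed the filter. Their means were 10.40 for KRT18, 8.16 for MUC1, 5.86 for KRT8 and 5.31 for GATA3. KRT19 (4.88), FOXA1 (4.83) and CDH1 (4.66) passed with means under 5. EPCAM (2.76), ESR1 (3.63) and SPDEF (4.25) were under the filter on all arrays. Of the basal list all 7 genes with a probe set of their own passed, among them the keratins KRT5 and KRT14 with means of 12.64 and 12.43. Of the leukocyte list 1 of 5 (CD14) passed, and of the endothelial and fibroblast list 2 of 6 (PECAM1 and COL1A1). TFPI had log2 signals of 5.66, 5.81 and 5.51 under the TFPIα label and 5.55, 5.79 and 5.81 under the TFPIβ label, against 5.81, 6.48 and 6.45 under the empty vector label, with a log2 fold change against empty vector of -0.59 in TFPIα (limma adjusted p = 0.335) and -0.53 in TFPIβ (limma adjusted p = 1.00). The study's account is that the transfected cDNA held only the coding part of TFPI whereas probes of the array read the untranslated parts. By that account these signals do not check the labels. The study also reports higher TFPI in both TFPI lines by qRT-PCR. It reports the same from the arrays with PLIER, an algorithm that drops probes of low signal. PLIER was not run here. The part of the marker levels in the results below was not tested.

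None of the 5 expressed receptor and ligand genes passed the test in any comparison of groups. The test was limma over 17482 probe sets with Benjamini-Hochberg adjustment, and a gene was called at an adjusted p under 0.05 with a fold change of at least 2. That rule called 0.00572% of probe sets in TFPIα against empty vector (1 probe set) and 0.0% both between TFPIβ and empty vector and between TFPIβ and TFPIα. At an unadjusted p under 0.05, 0 of the 5 genes passed in each of the 3 comparisons, against 14.2% of all probe sets in TFPIα and 4.72% in TFPIβ against empty vector, and 8.63% between TFPIβ and TFPIα. In the fit with the replicate number as a block, 1 of the 5 genes (EREG, in TFPIβ against TFPIα) reached that p, against 15.4% of all probe sets in that comparison. The groups were apart for 0 of the 10 genes in each comparison, with ties counted as overlap. EGFR in TFPIα and ERBB4 and NRG1 in TFPIβ met the empty vector arrays at 1 shared value. The share of all probe sets with groups apart was not counted, so the 0 of 10 is no result particular to these genes. Both comparisons with empty vector share the empty vector arrays, so their values are not independent.

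EGFR, the receptor that binds most of these ligands, had log2 signals of 7.30, 6.95 and 6.96 under the TFPIα label, 7.39, 7.63 and 6.79 under the TFPIβ label, and 7.37, 7.57 and 7.30 under the empty vector label. The lowest value was that of TFPIβ replicate 3, and 2 of the 3 TFPIα arrays lay below every empty vector array. Its log2 fold change was -0.34 in TFPIα against empty vector (95% confidence interval -0.82 to 0.14, adjusted p = 0.453), -0.14 in TFPIβ against empty vector (-0.62 to 0.34, adjusted p = 1.00) and 0.20 in TFPIβ against TFPIα (-0.28 to 0.68, adjusted p = 0.690). The last value was 0.02 without TFPIβ replicate 2, 0.31 without TFPIα replicate 1 and 0.44 without TFPIβ replicate 3 (adjusted p = 0.151, the lowest of any of these genes under any setting). The value of TFPIβ against empty vector was -0.32 without TFPIβ replicate 2, -0.06 without empty vector replicate 2 and 0.10 without TFPIβ replicate 3.

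ERBB2 had log2 signals of 5.94, 5.69 and 5.86 in TFPIα, 5.98, 5.88 and 5.79 in TFPIβ and 5.63, 6.24 and 5.88 in empty vector. The lowest and the highest array were both labelled empty vector. The log2 fold change against empty vector was -0.09 in TFPIα (95% confidence interval -0.44 to 0.26) and -0.03 in TFPIβ (-0.38 to 0.32), intervals that leave out a change of 2-fold in either direction. ERBB3, which has little kinase activity of its own, lay between 3.34 and 3.76, and ERBB4 between 3.13 and 3.54, on all 9 arrays.

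EPGN (epigen), an EGFR ligand best known from epithelial tissue, had log2 signals of 9.23, 9.05 and 9.29 in TFPIα, 9.44, 9.08 and 8.94 in TFPIβ and 9.19, 8.64 and 8.83 in empty vector. The TFPIα arrays had the narrowest spread, and empty vector replicate 1 lay within the range of both other groups. The log2 fold change was 0.30 in TFPIα (95% confidence interval -0.10 to 0.70, adjusted p = 0.429) and 0.26 in TFPIβ (-0.13 to 0.66, adjusted p = 1.00) against empty vector, and -0.04 in TFPIβ against TFPIα (-0.44 to 0.36). As single arrays were left out, the value in TFPIα against empty vector ran from 0.18 without empty vector replicate 2 to 0.45 without empty vector replicate 1, and that in TFPIβ against empty vector from 0.12 without TFPIβ replicate 1 to 0.42 without empty vector replicate 1.

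EREG (epiregulin), a ligand of EGFR and ERBB4, had the widest spread of the family, with log2 signals of 7.39, 9.44 and 9.75 in TFPIα, 7.16, 7.46 and 8.96 in TFPIβ and 7.90, 8.17 and 8.69 in empty vector. The highest and the lowest array differed by 6.04-fold, and the SD of 0.94 over 9 arrays ranked 157 of 17482 probe sets, whose median SD was 0.19. Within TFPIα, replicate 1 lay below every empty vector array while replicates 2 and 3 lay above every other array of any group. The log2 fold change was 0.61 in TFPIα against empty vector (95% confidence interval -0.92 to 2.14, adjusted p = 0.684), -0.39 in TFPIβ against empty vector (-1.92 to 1.14, adjusted p = 1.00) and -1.0 in TFPIβ against TFPIα (-2.53 to 0.53, adjusted p = 0.568). In TFPIα against empty vector the value was 1.34 without TFPIα replicate 1, 0.32 without TFPIα replicate 2 and 0.16 without TFPIα replicate 3. In TFPIβ against TFPIα it was -1.74 without TFPIα replicate 1, -0.55 without TFPIα replicate 3, -0.65 without TFPIβ replicate 1 and -1.55 without TFPIβ replicate 3, and in TFPIβ against empty vector it was -0.94 without TFPIβ replicate 3 and -0.04 without TFPIβ replicate 1.

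TGFA, a ligand of EGFR, had log2 signals of 4.69, 5.05 and 5.16 in TFPIα, 4.90, 4.92 and 5.32 in TFPIβ and 4.73, 4.92 and 4.86 in empty vector. The arrays above 5 were TFPIα replicates 2 and 3 and TFPIβ replicate 3, so TGFA passed the filter only through arrays of those groups. Its log2 fold change was 0.13 in TFPIα (95% confidence interval -0.23 to 0.49) and 0.21 in TFPIβ (-0.15 to 0.57) against empty vector. As single arrays were left out, it ran from 0.04 without TFPIα replicate 3 to 0.27 without TFPIα replicate 1 in TFPIα, and from 0.07 without TFPIβ replicate 3 to 0.28 without TFPIβ replicate 1 in TFPIβ. HBEGF had 4.25, 4.95 and 4.85 in TFPIα, 4.51, 4.38 and 4.57 in TFPIβ and 4.57, 4.54 and 4.69 in empty vector, with both its lowest and its highest array in TFPIα. BTC (betacellulin) lay between 4.69 and 4.99, and NRG1 (neuregulin 1, a ligand of ERBB3 and ERBB4) between 3.82 and 4.10. The other NRG1 probe set had a mean of 3.24, against 3.93 for the one used, and was under the filter too. The dim genes held few distinct values, 5 over the 9 arrays for NRG1, 6 for BTC and ERBB4 and 7 for ERBB3, and BTC had the same signal on all 3 TFPIα arrays.

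**Figure D2:**
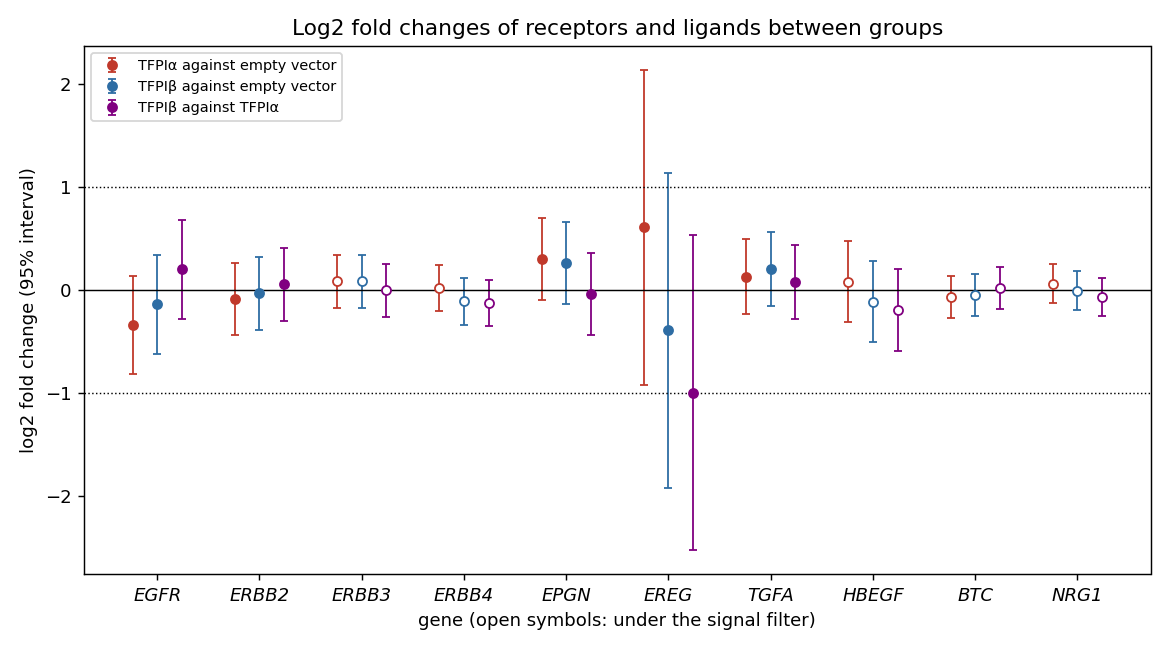
Log2 fold change (vertical axis) of each receptor and ligand (horizontal axis) for each TFPI isoform against empty vector and for TFPIβ against TFPIα, with 95% confidence intervals from limma over 9 arrays (n = 3 per group); open symbols are genes under the filter, fitted with no filter, and dotted lines mark a change of 2-fold. EREG has the widest intervals, -0.92 to 2.14 in TFPIα against empty vector, and every interval crosses 0.

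The replicate number accounted for more of the spread of the EREG signal than the group did. Of the sum of squares of EREG over the 9 arrays, 58.4% lay between replicate numbers, 21.7% between groups and 19.8% in the rest, against medians of 30.7%, 31.0% and 32.0% over all probe sets past the filter. The share between replicate numbers was above that between groups for every other member too. How many of all probe sets show the same was not counted, and their 2 medians are close, so this is no trait particular to the members. The share between replicate numbers was 55.5% against 20.6% for TGFA, 44.2% against 33.4% for EPGN and 36.8% against 26.4% for EGFR. For ERBB2 it was 7.01% against 4.57%, with 88.4% in the rest. Under the filter, BTC had 54.7% against 11.8% and ERBB4 50.4% against 28.9%. The mean of EREG was 9.13 over the 3 arrays numbered 3, 8.36 over those numbered 2 and 7.48 over those numbered 1. In each of the 3 groups the array numbered 1 was the lowest and the array numbered 3 the highest. In the limma test of the replicate number with the group in the model, EREG had an adjusted p = 0.242, so it did not pass, and that test passed 0.0% of all probe sets after adjustment. At an unadjusted p under 0.05 EREG was the 1 gene of the 5, against 16.0% of all probe sets. TGFA had a limma adjusted p = 0.317 and EPGN a limma adjusted p = 0.322 in that test. The mean of TGFA was 5.11 over arrays numbered 3 and 4.77 over those numbered 1, whereas EPGN had 9.02 over those numbered 3 and 9.29 over those numbered 1. EGFR had a limma adjusted p = 0.388, with a difference of -0.33 between the arrays numbered 3 and those numbered 1. With the replicate number as a block, EREG in TFPIβ against TFPIα had a 95% confidence interval of -1.91 to -0.09 (limma adjusted p = 0.321), which stayed uncalled. What the replicate numbers share beyond a separate RNA isolation is not given in the sources used here.

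**Figure D3:**
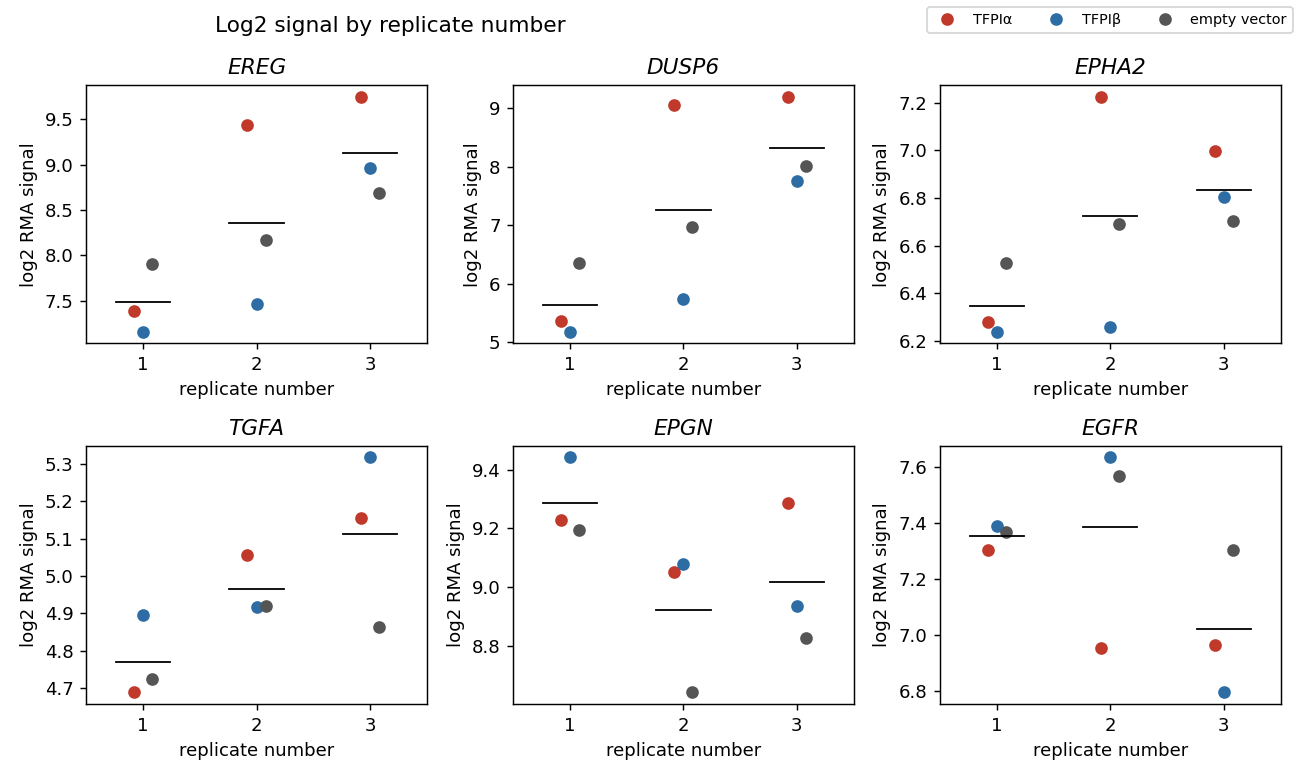
Log2 RMA signal (vertical axis) against replicate number (horizontal axis) for EREG, DUSP6, EPHA2, TGFA, EPGN and EGFR; points are single arrays coloured by group and black lines are means over the 3 arrays of a number. EREG averages 9.13 on the arrays numbered 3 and 7.48 on those numbered 1, and DUSP6 is also lowest on the array numbered 1 in each group.

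Over the 9 arrays, the receptor and ligand signals gave 24 pairs, each tested with a two-sided exact permutation test over all pairings of arrays, and 0 passed after Benjamini-Hochberg adjustment over the 24 pairs. The lowest p belonged to EGFR with EREG, with a Pearson r of -0.77 (exact p = 0.0192, adjusted p = 0.333) and a Spearman rho of -0.69 (exact p = 0.0470, adjusted p = 0.572). Without the 2 arrays farthest from the EGFR median its r was -0.71, on deviations from the group means -0.80 (permutation within groups, p = 0.0648), and on deviations from group and replicate means -0.85. EGFR with TGFA had an r of -0.72 (exact p = 0.0278, adjusted p = 0.333) and a rho of -0.45 (exact p = 0.224, adjusted p = 0.596). Without the 2 far arrays the r of this pair was -0.40. Leaving those out narrows the range of EGFR, which by itself can weaken an r. The r of EGFR with TGFA was -0.78 on deviations from the group means (permutation within groups, p = 0.0926) and -0.82 on deviations from group and replicate means. EGFR with HBEGF had an r of -0.59 (exact p = 0.0976, adjusted p = 0.647), with HBEGF under the filter. EPGN, the other ligand past the filter, had an r of -0.12 with EGFR (exact p = 0.760), which turned to 0.20 on deviations from the group means. ERBB2 had negative r values with all 6 ligands, from -0.11 with TGFA to -0.39 with NRG1, each with an adjusted p over 0.7. The 9 arrays share groups and replicate numbers, so they are not 9 unrelated samples.

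**Figure D4:**
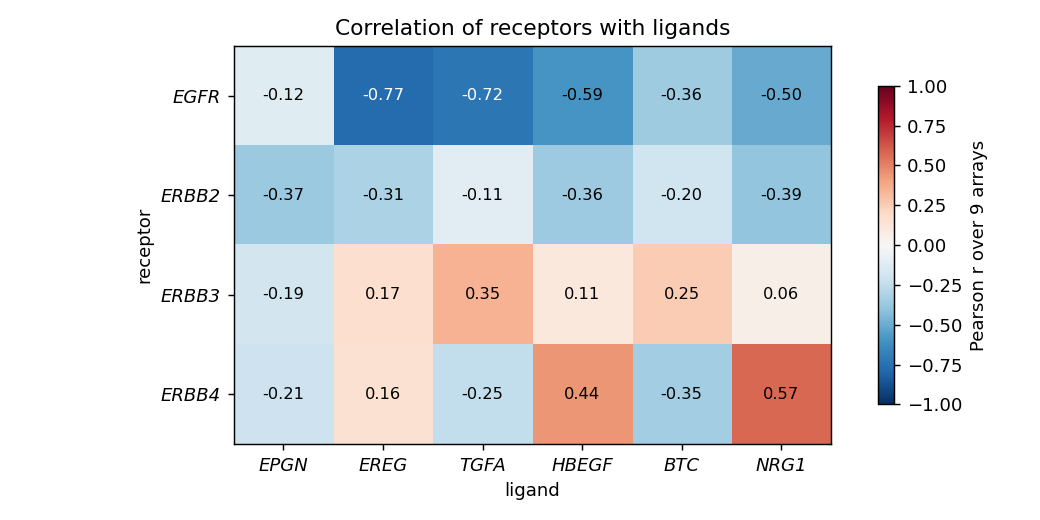
Pearson r over 9 arrays for each receptor (rows) with each ligand (columns), coloured from -1 to 1. The most negative values are those of EGFR with EREG (-0.77) and with TGFA (-0.72), and no pair passed after adjustment over the 24 pairs.

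Across 11233 genes past the filter with 1 symbol, the 2 most like EREG over the 9 arrays were DUSP6 (Pearson r = 0.99), a phosphatase that inactivates ERK, and IL6 (Pearson r = 0.98), an inflammatory cytokine. DUSP6 had log2 signals of 5.36, 9.07 and 9.20 in TFPIα, 5.17, 5.73 and 7.76 in TFPIβ and 6.35, 6.97 and 8.01 in empty vector, so the same 2 TFPIα arrays were highest and the same TFPIβ array lowest as for EREG. IL6 had 4.61, 7.73 and 8.23 in TFPIα, 4.38, 4.66 and 6.83 in TFPIβ and 6.02, 6.15 and 6.20 in empty vector. Its empty vector arrays lay close together, unlike those of EREG. The genes most like EGFR were ZNF277 and AACS (r = 0.99 each), those most like ERBB2 were SSH3 (0.96) and NKPD1 (0.94), those most like TGFA were FOXN2 (0.99) and HSP90AB2P (0.94), and those most like EPGN were FRAT2 (0.95) and LHX3 (0.92). These values are the highest of many and are given without a test.

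Of the genes known to be induced downstream of EGFR and ERK, 0 were called in any comparison. Of 20 listed genes 19 had a probe set of their own and passed the filter. In TFPIα against empty vector 18 of the 19 lay above 0 with a median log2 fold change of 0.28, in TFPIβ against empty vector 3 lay above 0 and 16 below with a median of -0.14, and in TFPIβ against TFPIα 18 lay below 0 with a median of -0.48, against medians of 0.00 over all probe sets. At an unadjusted p under 0.05 the counts were 3 of 19 (15.8%) in TFPIα and 0 of 19 in TFPIβ against empty vector, and 3 of 19 (15.8%) between TFPIβ and TFPIα, against 14.2%, 4.72% and 8.63% of all probe sets. With the replicate number as a block they were 5 of 19 in TFPIα and 1 of 19 in TFPIβ against empty vector, and 9 of 19 in TFPIβ against TFPIα, against 20.3%, 7.16% and 15.4% of all probe sets. The genes with the lowest p in TFPIα against empty vector were EGR1 (log2 fold change 1.19, adjusted p = 0.335), an immediate early transcription factor, ETV4 (1.16, adjusted p = 0.344), an ETS-family transcription factor, CCND1 (0.66, adjusted p = 0.346), which encodes cyclin D1, and DUSP5 (0.39, adjusted p = 0.422), another ERK phosphatase. EGR1 had 6.98, 8.77 and 8.44 in TFPIα, 6.72, 7.12 and 6.55 in TFPIβ and 6.57, 6.80 and 7.24 in empty vector. TFPIα replicate 1 again lay within the range of the other groups, while the other TFPIα arrays lay above all arrays of both other groups. The count above 0 in TFPIα against empty vector was 13 without TFPIα replicate 2, 14 without TFPIα replicate 3 and 15 without empty vector replicate 2, and the median was 0.65 without TFPIα replicate 1, 0.50 without empty vector replicate 3, 0.17 without TFPIα replicate 2 and 0.10 without TFPIα replicate 3. In TFPIβ against empty vector 13 to 16 genes lay below 0 whichever array was left out, with a median of -0.25 without TFPIβ replicate 3, -0.22 without empty vector replicate 1 and -0.08 without TFPIβ replicate 2. In TFPIβ against TFPIα, 17 to 19 genes lay below 0 whichever array was left out, with medians between -0.76 without TFPIα replicate 1 and -0.36 without TFPIα replicate 3. Without TFPIα replicate 1, 9 genes reached an unadjusted p under 0.05 in TFPIα against empty vector. The count was 1 without empty vector replicate 1, and 0 without TFPIα replicate 2 or 3, or empty vector replicate 2. Over all 17482 probe sets, 2785 reached that p without TFPIα replicate 1 and 2639 without empty vector replicate 1. It was reached by 1280 without TFPIα replicate 2, 1123 without TFPIα replicate 3 and 1500 without empty vector replicate 2. In TFPIβ against TFPIα 13 of the genes reached that p without TFPIα replicate 1 and 7 without TFPIβ replicate 3. There 1 gene did without TFPIβ replicate 2, and 0 without TFPIα replicate 2 or 3. Over all probe sets, 2011 did without TFPIα replicate 1, 4147 without TFPIβ replicate 3 and 592 without TFPIβ replicate 2. Without TFPIα replicate 2 or 3 the counts over all probe sets were 818 and 570. The downstream genes vary together, so their counts are no count of separate observations.

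**Figure D5:**
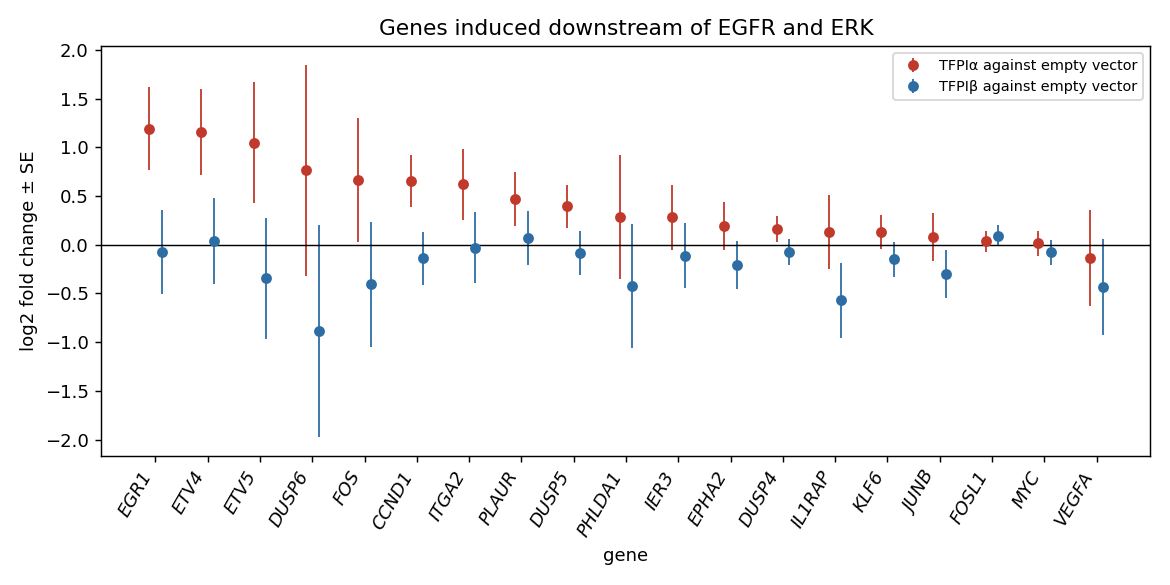
Log2 fold change with standard error (vertical axis) of 19 genes induced downstream of EGFR and ERK (horizontal axis) in TFPIα and in TFPIβ against empty vector (n = 3 arrays each). In TFPIα 18 points lie above 0 and in TFPIβ 16 lie below it, and no gene passed the test.

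Over the 9 arrays most of these genes had a positive r with EREG and a negative r with EGFR, which describes arrays that share groups and replicate numbers. Their Pearson r with EREG was above 0 for 19 of 19, with a median of 0.81 and a range of 0.18 (JUNB) to 0.99 (DUSP6), and 11 of 19 exceeded 0.8, against 3.78% of all probe sets past the filter. EPHA2, a receptor kinase, had an r of 0.95 with EREG, with signals of 6.28, 7.23 and 7.00 in TFPIα, 6.24, 6.26 and 6.80 in TFPIβ and 6.52, 6.69 and 6.70 in empty vector. Again the same 2 TFPIα arrays were highest. With EGFR the r was below 0 for 17 of 19, with a median of -0.70, and 5 of 19 (ETV5, ETV4, PLAUR, DUSP5 and CCND1) were below -0.8, against 9.95% of all probe sets. The median r was 0.50 for TGFA, 0.00 for EPGN and -0.31 for ERBB2. On deviations from group and replicate means the medians were 0.82 for EREG, 0.61 for TGFA, 0.39 for EPGN (17 of 19 above 0), -0.44 for ERBB2 and -0.63 for EGFR. By replicate number, 7 of the 19 genes (36.8%) reached an unadjusted p under 0.05, against 16.0% of all probe sets, and 0 passed after adjustment. EPHA2, JUNB, ETV5 and PLAUR were named here on the strength of their values.

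The other listed genes of the pathway had no called member in any comparison. Of the other EGF-family ligands, EGF and NRG3 were under the filter and AREG had no probe set of its own, and NRG4, a ligand of ERBB4, had a log2 fold change of -0.14 in TFPIα and 0.15 in TFPIβ against empty vector. NRG2, another neuregulin, had -0.09 in TFPIα and -0.00275 in TFPIβ. Among the proteases and partners of ligand release, 10 of 14 passed the filter. Of these, 9 of the 10 lay below 0 against empty vector in TFPIα (median -0.11) and in TFPIβ (median -0.15). Over all 17482 probe sets, 8736 lay above 0 in TFPIα and 8833 in TFPIβ against empty vector. Both comparisons use the same empty vector arrays, so the counts are not independent. ADAM9, a membrane protease, had -0.37 in TFPIβ (limma adjusted p = 0.954) and NRDC, a peptidase that enhances shedding of HBEGF, had -0.20 in TFPIβ, and these were the 2 of 10 (20.0%) at an unadjusted p under 0.05, against 4.72% of all probe sets. In TFPIα against empty vector 0 of 10 reached that p, against 14.2%, and in TFPIβ against TFPIα 1 of 10 (10.0%), against 8.63%. ADAM12, also named on the strength of its values, had -1.02 in TFPIβ against TFPIα (limma adjusted p = 0.532).

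Among the adaptors, 15 of the 16 with a probe set of their own passed the filter, and 3 of 15 (20.0%) reached an unadjusted p under 0.05 in TFPIα against empty vector, against 14.2% of all probe sets. EPS8, an EGFR substrate that acts on RAC and actin, had a log2 fold change of 0.71 (limma adjusted p = 0.335), SHC1, which links the receptors to RAS, -0.39 (0.335), and PLCG1, a phospholipase recruited to EGFR, 0.26 (0.339). SHC1 was also the 1 of 15 genes (6.67%) at that p in TFPIβ against empty vector, with -0.31, against 4.72% of all probe sets. In TFPIβ against TFPIα, EPS8 had -0.85. Of the RAS/MAPK and PI3K/AKT components, 12 of the 13 with a probe set of their own passed the filter. In TFPIα against empty vector 3 of 12 (25.0%) reached that p, against 14.2% of all probe sets. They were AKT1 (0.34), HRAS (0.25) and PIK3R1 (-0.45), the regulatory subunit of PI3K. In TFPIβ against empty vector 0 of 12 did, against 4.72% of all probe sets. In TFPIβ against TFPIα 2 of 15 adaptors (13.3%) and 2 of 12 components (16.7%) reached that p, against 8.63% of all probe sets.

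Of the negative regulators of the receptors, 17 of 18 passed the filter. Against empty vector 10 lay above 0 in TFPIα (median 0.11) and 4 in TFPIβ (median -0.08). Over all 17482 probe sets, 8736 and 8833 lay above 0 in these 2 comparisons. SPRY2, a feedback inhibitor of ERK signalling that is itself induced by it, had 0.56 in TFPIα (limma adjusted p = 0.347), and CBL, the ubiquitin ligase that sends EGFR for degradation, had 0.34 (0.347). These were the 2 of 17 (11.8%) at an unadjusted p under 0.05, a share below the 14.2% of all probe sets. In TFPIβ against empty vector 0 of 17 reached that p, against 4.72%, and in TFPIβ against TFPIα 3 of 17 (17.6%) did, all lower in TFPIβ, against 8.63%. SPRY2 had signals of 5.47, 6.04 and 6.12 in TFPIα, 5.02, 4.88 and 5.58 in TFPIβ and 5.45, 5.03 and 5.45 in empty vector. TFPIα replicate 1 lay below TFPIβ replicate 3, and the other TFPIα arrays lay above all others. Among the 8 neighbours of ERBB2 past the filter, 0 reached an unadjusted p under 0.05 in any comparison of groups. The shares of all probe sets were 14.2% in TFPIα and 4.72% in TFPIβ against empty vector, and 8.63% in TFPIβ against TFPIα. PGAP3 had -0.23 and PSMD3 0.27 in TFPIα against empty vector. Of the cell type markers, 0 luminal and 0 basal genes were called. At an unadjusted p under 0.05, 2 of 7 luminal and 2 of 7 basal genes (28.6% each) lay in TFPIα against empty vector, against 14.2% of all probe sets, with MUC1 at -1.34, KRT18 at 0.66, ITGB4 at -0.86 and CAV1 at 0.67. In TFPIβ against empty vector 0 of 7 luminal and 2 of 7 basal genes reached that p, against 4.72%, with CAV1 at 0.46 and ITGA6 at -0.26. Their part in the values of the receptors and ligands was not tested.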

How the data were processed

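The authors ran RMA within the Partek Genomics Suite (versions are not given in the sources used here) on 9 Human Gene 1.0 ST arrays, and deposited log2 signals for 33297 probe sets. The base of 2 is not stated and was inferred from how large the values are. Array medians ran from 4.78 to 4.88, and precision is limited by having 3 arrays in a group. As the methods word their filter, a probe set was kept if its signal reached 5 on any array, which held for 17482, fewer than the transcripts the methods state, for a reason not known here. limma 3.58.1 (lmFit, then eBayes, under R 4.3.3) was fitted to all 9 arrays at once, with Benjamini-Hochberg adjustment over all 17482. The replicate number was tested with an F test with group in the model. Correlations were tested with exact permutation in Python 3.11.15 with numpy and scipy. The scripts were tested on simulated data.

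The members and gene lists were chosen with earlier results of these data known. The genes named are the 10 members, TFPI, up to 4 genes per pathway list with the lowest p in TFPIα or TFPIβ against empty vector, and the 2 genes most like each member past the filter, and others are marked where they occur. The marker and amplicon genes given as checks of the cell line were picked after their values were seen. Correlations of the members with the downstream genes were chosen after seeing the data and are given without a test. Arrays of different groups with the same number had deviations from the group means that correlated at 0.137 to 0.594 (9 pairs), against -0.512 to 0.266 for the other 18 pairs. These ranges overlap. Deviations from a group mean cancel within the group, so positive values for the same number push the others down. The numbers may thus pair the arrays, which the sources used here do not state. A fit with the number as a block was an alternative, with those listed in the closing section. With 3 arrays a group, an exact permutation test between groups cannot go below p = 0.1, so none was used. Some listed genes are not reported here.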

Additional observations from a re-analysis of the deposited data

How the results depend on the processing

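In TFPIα against empty vector the 1 called probe set became 0 in a one-way model without moderation, with only the 2 compared groups, with no filter, with arrays centred on their medians and in the fit blocked by replicate number, and 0 to 4 when an array was left out (4 without TFPIα replicate 3, 0 without 7 of the other arrays). TFPIβ against TFPIα gave 1 in the fit with the replicate block and 0 otherwise, and TFPIβ against empty vector 0 throughout. The test of the replicate number gave 2 with no filter, 0 to 1 when an array was left out (1 without TFPIα replicate 3) and 0 otherwise. None of the 5 genes past the filter was called in any of 252 repeats of their 15 fold changes, of which 242 kept their direction and call. The other 10, each an array left out, changed sign: the values ran from -0.32 to 0.10 for EGFR in TFPIβ against empty vector, -0.231 to 0.0756 and -0.18 to 0.13 for ERBB2 in TFPIα and in TFPIβ against empty vector, and in TFPIβ against TFPIα from -0.0152 to 0.107 for ERBB2, -0.0619 to 0.172 for TGFA and -0.181 to 0.0706 for EPGN. Blocking by replicate number changed no call of a receptor or ligand. None of the 24 receptor and ligand correlations passed under any alternative tested, and the lowest adjusted p within groups was 0.111, for EGFR with HBEGF. The r of EGFR with EPGN changed sign as a Spearman rho (0.0418), within groups (0.20) and on deviations from group and replicate means, the replicate block (0.21), and ran from -0.31 to 0.22 as single arrays were left out. The causes were not tested. With 3 arrays a group, the interval of EREG in TFPIα against empty vector, -0.92 to 2.14 on the log2 scale, holds changes of over 2-fold.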
